A study of Drosophila melanogaster with 12 samples.

Results

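Cells marked by GFP as expressing Rfx were set against GFP-negative cells of larval brains that lack Rfx. The comparison takes 3 libraries of GFP-positive cells and 3 libraries of GFP-negative cells from rfx knock-out (KO) brains, 6 of the 12 libraries of the series. The other 6 libraries come from wild-type (WT) brains, with 3 of each fraction. They show where the KO comparison differs, and they also enter the filter and the estimate of spread behind every p-value. All groups are Drosophila melanogaster brain cells from larvae early in instar 3, dissociated and sorted by FACS, with GFP marking cells that express Rfx. The labels call every sample a neuron, the GFP-negative fractions included. They give the genotype only as rfx knock-out, so the allele, the construct that drives GFP and the sex of the larvae are not given in the sources used here. Whether the 3 libraries of a group are from different larvae or preparations is not stated, and the p-values cover only the spread between these libraries, which may be technical.

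Rfx proteins are winged-helix transcription factors that bind X-box motifs in the promoters of ciliary genes. In Drosophila, cilia are built by sensory neurons of the periphery, where Rfx switches on the genes for intraflagellar transport, the trains that carry cargo into the cilium, and for the transition zone at its base. The larval brain holds neuroblasts, the stem cells that divide asymmetrically into ganglion mother cells, besides immature and mature neurons and glia, and its neurons are not among the cells known for cilia.

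Values are the deposited normalised read counts, on the scale of CPM (reads scaled to a common library size), and means are given ± SD of 3 libraries. The KO libraries held 21498160 to 29771321 reads in the table, so 1 read was worth 0.0309 to 0.0436. In KO GFP-positive replicate 3, reads of annotated rRNA made up 2.54% of the table, against 0.289% to 0.544% in the other 5 KO libraries. The first principal component of the 6 KO libraries held 77.3% of the variance and separated the fractions. On it, KO GFP-positive replicate 3 lay nearest to the KO GFP-negative libraries, at -28.4, against -44.1 and -52.6 for the other KO GFP-positive libraries and 36.0 to 49.9 for the KO GFP-negative libraries. In bulk samples, fewer cells of a type and less RNA per cell cannot be told apart.

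Rfx itself (FBgn0020379, 3R, 10361760 to 10378068 in BDGP6.54) stood at 1322, 1035 and 1021 in KO GFP-positive libraries, against 52.3, 52.3 and 54.5 in KO GFP-negative libraries. All 3 KO GFP-positive libraries lay above all KO GFP-negative libraries, by 21.2-fold on the means (log2 difference 4.37, SE 0.11, adjusted p = 5.99e-11, limma-trend over all genes tested). Rfx transcripts were thus higher in the GFP-positive fraction of the knock-out as well. In WT brains Rfx stood at 2793 ± 217 in WT GFP-positive cells and 73.7 ± 0.358 in WT GFP-negative cells, so its GFP difference was smaller in KO brains (interaction -0.85, SE 0.15, adjusted p = 0.0236). That difference between the genotypes was no longer called without any 1 KO library other than KO GFP-positive replicate 1 (adjusted p = 0.0546 to 0.0841), nor with quantile normalisation (0.212) or equal library totals (0.239). Rfx RNA is present in every KO library, so the level of the gene does not by itself check the knock-out label. Which transcripts the allele leaves is not given in the sources used here.

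**Figure D1:**
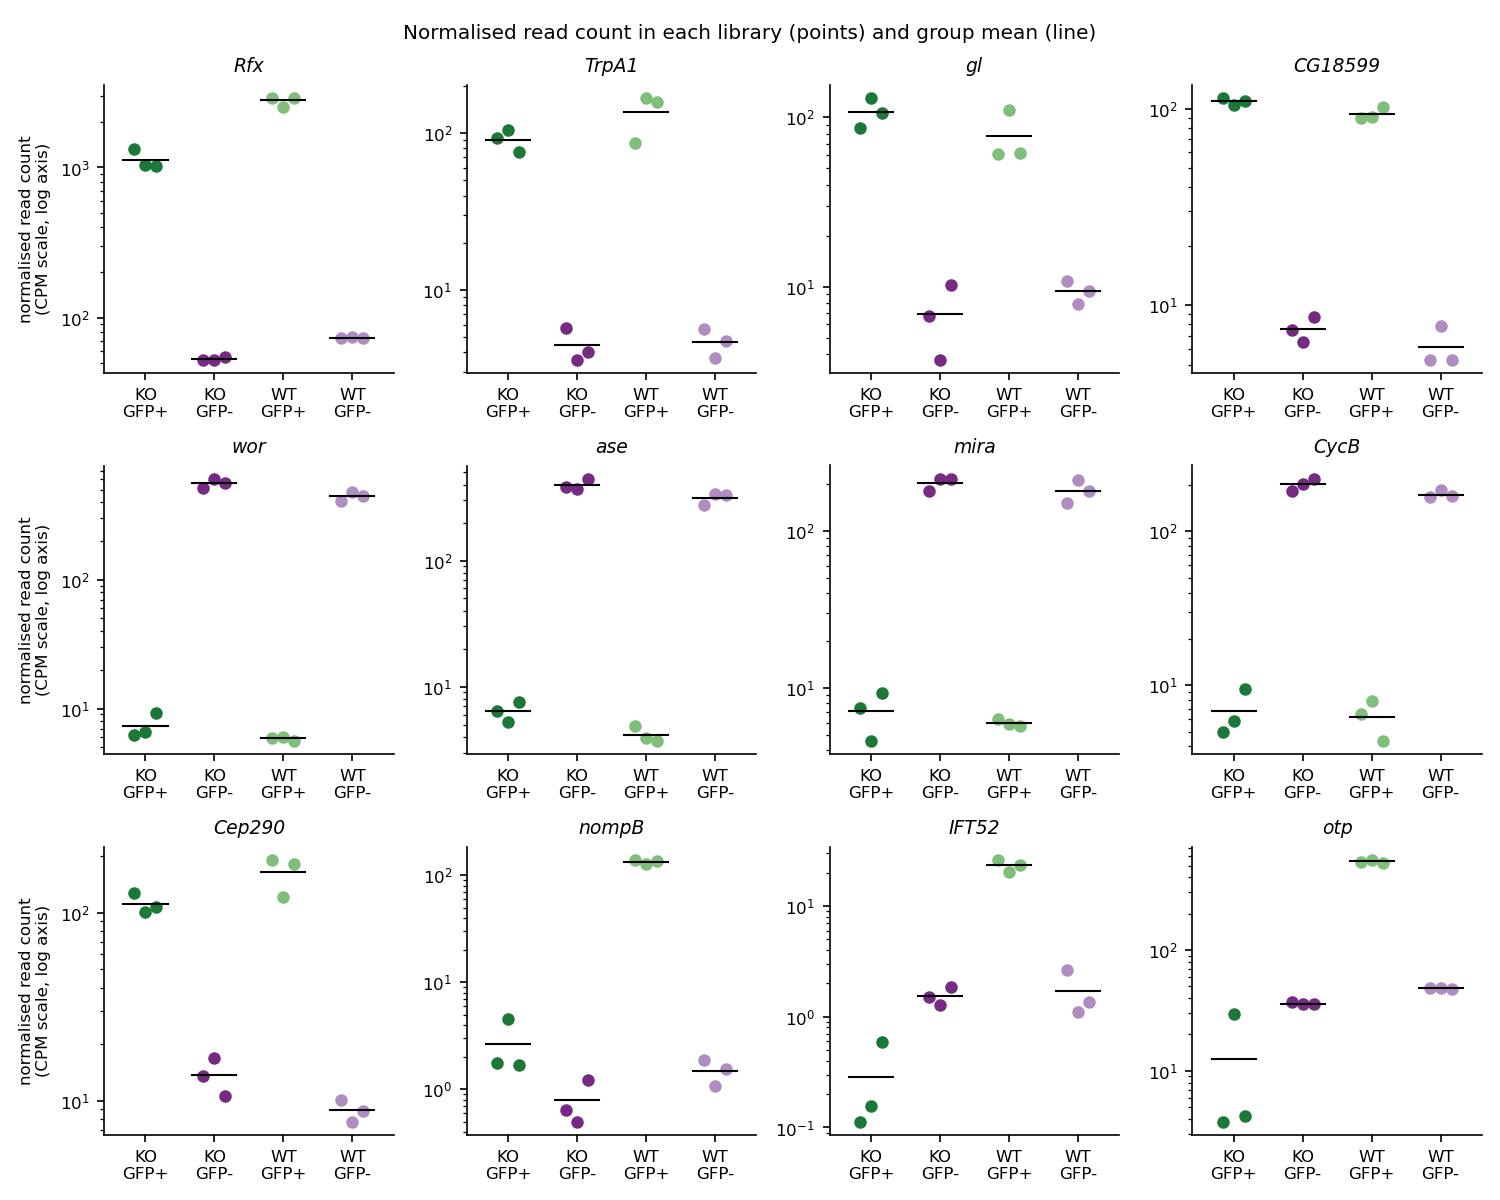
Normalised read count (CPM scale, log axis) of 12 genes in every library, with KO GFP-positive, KO GFP-negative, WT GFP-positive and WT GFP-negative libraries from left to right, a point for each library and a line at each group mean. Rfx, TrpA1, gl, CG18599 and Cep290 were higher in GFP-positive cells of both genotypes and wor, ase, mira and CycB were lower, while IFT52 and nompB were high only in the WT GFP-positive column and otp fell on opposite sides in the genotypes.

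Of 9912 genes tested, 3615 differed between the KO fractions at a Benjamini-Hochberg adjusted p under 0.05, or 36.5%. Of these, 2341 were higher in KO GFP-positive cells (23.6% of the genes tested) and 1274 were lower (12.9%). The lower genes had the larger differences. At least 4-fold, 115 called genes were higher and 460 lower, and at least 10-fold, 24 were higher and 161 lower. Groups did not overlap in 4796 genes (48.4%), with all KO GFP-positive libraries above in 3000 (30.3%) and below in 1796 (18.1%). Among called genes, 64.8% were higher with the deposited scaling, 55% after quantile normalisation, 52.9% with edgeR, 53.7% with DESeq2 and 39.8% with equal library totals. The last of these moved the median log2 difference of all genes to -0.13, against 0.07 with the deposited scaling. No gene called with the deposited scaling was called in the opposite direction under any of the other settings.

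The same contrast in WT brains shares no library with the KO contrast, but the calls are not independent. Both take the spread of each gene from the same fit of all 12 libraries, and each run of title numbers holds libraries of both genotypes. The WT contrast called 2550 genes higher (25.7%) and 1215 lower (12.3%). Higher in both were 1911 genes, 81.6% of those higher in KO and 74.9% of those higher in WT. In both genotypes 1011 genes were lower, 79.4% of those lower in KO and 83.2% of those lower in WT. Across the 9912 genes, which are not independent, the log2 differences had a Pearson correlation of 0.912 and a Spearman correlation of 0.891. The difference between the genotypes was tested as an interaction, the KO difference minus the WT difference. It called 55 genes (0.555%), 28 with a higher (0.282%) and 27 with a lower KO difference (0.272%), and 388 at an unadjusted p under 0.05. With a replicate block, which pairs the libraries by their runs of title numbers, the interaction called 101 genes, and without KO GFP-negative replicate 1 it called 34. WT GFP-positive replicate 2 held 12.2% rRNA reads, and without it and KO GFP-positive replicate 3 the interaction called 50 genes. Of the 55 genes, 31 were called without any 1 of the 6 KO libraries and 24 were not. In replicate 3, KO libraries were run on lane 7 and WT libraries on lane 6. Opposite calls in KO and WT brains were made for 9 genes, and the interaction called all of these.

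**Figure D2:**
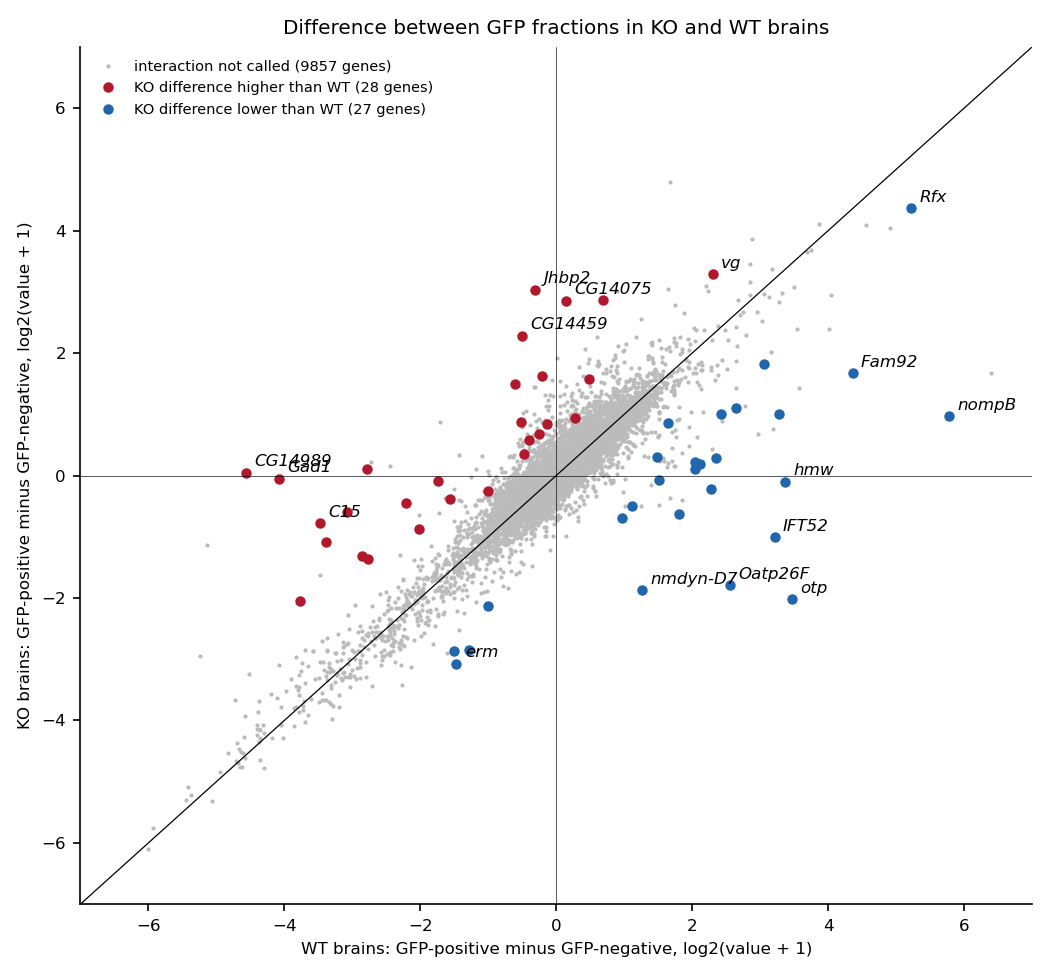
Log2 difference between GFP-positive and GFP-negative cells for each of the 9912 genes tested, in KO brains on the vertical axis and in WT brains on the horizontal axis, with the 55 genes called for the interaction in colour and some of them named. Most genes lie along the diagonal, while nompB, IFT52, hmw, Oatp26F and otp lie below it and CG14989, Gad1, Jhbp2 and CG14075 above it.

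Genes of neuroblasts were depleted from KO GFP-positive cells. The Snail-family factor wor, which keeps neuroblasts dividing, stood at 6.21, 6.54 and 9.24 in KO GFP-positive libraries, against 519, 609 and 564 in KO GFP-negative libraries, 76.9-fold lower (log2 difference -6.10, SE 0.13, adjusted p = 3.2e-11). ase, the proneural factor that marks neuroblasts, stood at 6.44, 5.21 and 7.52 in KO GFP-positive libraries, against 385, 366 and 446 in KO GFP-negative libraries, 62.4-fold lower (adjusted p = 5.99e-11). In both genes the fractions were far apart, and the KO GFP-positive libraries still held some reads. Of 17 neuroblast and progenitor transcription factors in the table, 16 passed the floor, of which 14 were lower and 1, Sox21b, was higher (2 without KO GFP-positive replicate 2 or 3; median log2 difference -2.42, against 0.07 over all genes tested). dpn, a bHLH repressor that maintains neuroblast self-renewal, averaged 1.62 ± 0.248 in KO GFP-positive cells and 44.8 ± 16.1 in KO GFP-negative cells. klu, a zinc-finger factor of the same cells, averaged 4.06 ± 1.00 in KO GFP-positive cells and 49.3 ± 8.93 in KO GFP-negative cells. tap, a proneural bHLH factor, averaged 9.58 ± 3.7 in KO GFP-positive cells and 402 ± 68.6 in KO GFP-negative cells. Sox21b, an SRY-box factor, went the other way, at 122, 108 and 132 in KO GFP-positive libraries, against 31.8, 32.9 and 36.4 in KO GFP-negative libraries (log2 difference 1.81, SE 0.13, adjusted p = 4.22e-07). In the same list the difference of erm, which restricts intermediate progenitors, was larger in KO than in WT brains, at 15.03 ± 3.26 in KO GFP-positive cells and 133 ± 20.5 in KO GFP-negative cells. WT brains had 43.8 ± 4.55 in WT GFP-positive cells and 123 ± 6.12 in WT GFP-negative cells (interaction -1.61, SE 0.21, adjusted p = 0.00271).

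Machinery that divides fate determinants between daughter cells was lower in part. Of 18 genes of asymmetric division and polarity, 8 were lower (44.4%, against 12.9% of all genes tested). Higher were 5, or 27.8%, near the 23.6% of all genes tested. mira, the adaptor that carries determinants to the basal cortex, stood at 7.41, 4.58 and 9.28 in KO GFP-positive libraries, against 179.8, 214 and 215 in KO GFP-negative libraries, 28.6-fold lower (adjusted p = 5.21e-09). insc, which orients the spindle, averaged 2.71 ± 0.988 in KO GFP-positive cells and 63.4 ± 11.1 in KO GFP-negative cells. pon, the partner of Numb, averaged 9.22 ± 2.13 in KO GFP-positive cells and 105 ± 11.6 in KO GFP-negative cells. spdo, which Notch signalling needs in these divisions, averaged 7.89 ± 2.91 in KO GFP-positive cells and 321 ± 41.6 in KO GFP-negative cells, 40.6-fold lower. numb itself, the inhibitor of Notch signalling, fell by less, at 64.001 ± 8.95 in KO GFP-positive cells and 298 ± 21.5 in KO GFP-negative cells (log2 difference -2.21). The cargo of mira was higher. pros, a homeodomain factor that ends divisions and stays on in neurons, averaged 3914 ± 583 in KO GFP-positive cells and 2368 ± 263 in KO GFP-negative cells (log2 difference 0.72, SE 0.19, adjusted p = 0.00981). brat, a translational repressor, averaged 2385 ± 44.2 in KO GFP-positive cells and 1484 ± 36.7 in KO GFP-negative cells (adjusted p = 0.000202). Of the higher genes, 1 was called with quantile normalisation or equal library totals, and 3 without KO GFP-positive replicate 1 or 2 or KO GFP-negative replicate 1 or 3. The polarity gene baz stood at 285, 244 and 277 in KO GFP-positive cells and 272, 260.1 and 278 in KO GFP-negative cells, with the groups overlapping.

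Notch signalling genes were lower in the same way. Among 21 tested genes of the pathway and its E(spl) target complex, 14 were lower and 2 higher, with a median log2 difference of -2.35. The receptor N stood at 11.5, 11.4 and 13.2 in KO GFP-positive libraries, against 144, 189.7 and 164 in KO GFP-negative libraries (log2 difference -3.68, SE 0.14, adjusted p = 2.02e-09). E(spl)mgamma-HLH, a Notch target active in neuroblasts, averaged 14.5 ± 0.547 in KO GFP-positive cells and 313 ± 124 in KO GFP-negative cells. E(spl)m8-HLH, of the same complex, averaged 23.7 ± 2.00 in KO GFP-positive cells and 206 ± 27.9 in KO GFP-negative cells. The ubiquitin ligase neur, which activates Notch ligands, averaged 61.99 ± 11.3 in KO GFP-positive cells and 203 ± 13.9 in KO GFP-negative cells. Higher were bib and mib1, another ligase for Notch ligands. bib, a channel-family protein first known from neurogenesis, averaged 58.6 ± 8.04 in KO GFP-positive cells and 31.02 ± 2.06 in KO GFP-negative cells (adjusted p = 0.000398). mib1 averaged 148 ± 18.7 in KO GFP-positive cells and 100.1 ± 15.4 in KO GFP-negative cells (adjusted p = 0.00904), and it was not called with quantile normalisation or equal library totals. The metalloprotease kuz, which cleaves Notch, stood at 142, 153 and 165 in KO GFP-positive cells and 133, 144 and 149 in KO GFP-negative cells and was not called.

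Proliferation genes were depleted with the neuroblast factors. Of 38 cell cycle and mitosis genes, 32 were lower and 2 higher (median log2 difference -2.18), and of 30 DNA replication genes 26 were lower and none higher (median -1.56; 27 lower and none higher in WT). CycB, a mitotic cyclin, stood at 4.94, 5.84 and 9.52 in KO GFP-positive libraries, against 184, 204 and 220.01 in KO GFP-negative libraries, 29.97-fold lower (log2 difference -4.75, SE 0.21, adjusted p = 7.2e-09). The mitotic kinase polo averaged 11.6 ± 1.51 in KO GFP-positive cells and 235 ± 17.5 in KO GFP-negative cells. stg, the Cdc25 phosphatase that triggers mitosis, averaged 11.7 ± 2.76 in KO GFP-positive cells and 141 ± 18.6 in KO GFP-negative cells. RnrS, the small subunit of ribonucleotide reductase, averaged 5.11 ± 1.23 in KO GFP-positive cells and 83.04 ± 19.5 in KO GFP-negative cells. The replicative helicase subunit Mcm2 averaged 5.87 ± 1.44 in KO GFP-positive cells and 103 ± 24.9 in KO GFP-negative cells. Rbf, the retinoblastoma homologue that blocks entry into S phase, was higher, at 126 ± 4.75 in KO GFP-positive cells and 91.8 ± 7.12 in KO GFP-negative cells (adjusted p = 0.00378). So was E2f1, the factor it binds, at 319.8 ± 39.3 in KO GFP-positive cells and 236 ± 9.64 in KO GFP-negative cells (adjusted p = 0.00661). Neither was called with quantile normalisation, with equal library totals or within lane 7.

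Centriole and centrosome genes were also mostly lower, 16 of 22, with 2 higher and a median log2 difference of -0.78. spd-2, which recruits pericentriolar material, averaged 9.76 ± 0.696 in KO GFP-positive cells and 77.99 ± 13.2 in KO GFP-negative cells (log2 difference -2.87, SE 0.18, adjusted p = 1.41e-07). Poc1, a protein of the centriole wall, averaged 3.36 ± 0.391 in KO GFP-positive cells and 35.5 ± 4.95 in KO GFP-negative cells. SAK, the kinase that starts centriole duplication, averaged 37.2 ± 6.09 in KO GFP-positive cells and 92.7 ± 11.01 in KO GFP-negative cells. The exceptions were Cep164 and Rcd4. Cep164, known in vertebrates from the appendages that dock the centriole to the membrane, stood at 226, 236 and 214 in KO GFP-positive libraries, against 129, 129 and 118 in KO GFP-negative libraries, with no overlap (log2 difference 0.84, SE 0.09, adjusted p = 1.82e-05). Rcd4 averaged 45.8 ± 3.00 in KO GFP-positive cells and 27.3 ± 2.11 in KO GFP-negative cells (adjusted p = 0.00112).

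Large increases were seen in genes of several kinds. The cation channel gene TrpA1, known for temperature and chemical sensing, stood at 92.96, 104 and 75.3 in KO GFP-positive libraries, against 5.71, 3.59 and 4.01 in KO GFP-negative libraries, 20.5-fold higher (log2 difference 4.09, SE 0.25, adjusted p = 8.85e-08). gl, a zinc-finger factor of photoreceptor development, stood at 86.1, 131 and 106 in KO GFP-positive libraries, against 6.67, 3.69 and 10.3 in KO GFP-negative libraries, 15.7-fold higher (adjusted p = 7.95e-07). The uncharacterised gene CG15082 stood at 44.2, 50.8 and 46.7 in KO GFP-positive libraries, against 1.73, 3.16 and 1.22 in KO GFP-negative libraries, 23.2-fold higher. CG14075, also uncharacterised, stood at 7.9, 11.8 and 12.8 in KO GFP-positive libraries, against 1.2, 0.533 and 0.218 in KO GFP-negative libraries. It was 16.6-fold higher, or 28.8-fold without KO GFP-negative replicate 1, and its difference was larger than in WT brains, at 0.907 ± 0.213 in WT GFP-positive cells and 0.736 ± 0.253 in WT GFP-negative cells (interaction 2.72, SE 0.35, adjusted p = 0.00238).

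Several of the largest folds moved by over 1.5 times when 1 library was left out. NPF, the gene of neuropeptide F, stood at 4.27, 104 and 4.62 in KO GFP-positive libraries, against 0.154, 0.355 and 0.48 in KO GFP-negative libraries (log2 difference 3.46, SE 1.17, adjusted p = 0.0346). Its 114-fold difference was 13.5-fold without KO GFP-positive replicate 2, and the call was lost then (adjusted p = 0.145) and without KO GFP-negative replicate 1, 2 or 3 (adjusted p = 0.0654 to 0.0862). CG4476 stood at 183, 87.05 and 8.5 in KO GFP-positive libraries, against 1.48, 2.1 and 2.92 in KO GFP-negative libraries, and its 42.9-fold difference was 22.1-fold without KO GFP-positive replicate 1. CG3168 was 15.4-fold higher, or 8.98-fold without KO GFP-positive replicate 1, at 295, 153 and 34.6 in KO GFP-positive libraries, against 10.5, 8.38 and 12.4 in KO GFP-negative libraries. Both kept their calls without any 1 KO library. In both, KO GFP-positive replicate 3, the library with the larger share of rRNA reads, was the lowest of the KO GFP-positive libraries. It was lowest in 57 of the 115 genes called at least 4-fold higher, and in 4623 of all 9912 genes. NT5E-2, a nucleotidase gene, stood at 29.3, 17.7 and 4.07 in KO GFP-positive libraries, against 1.02, 0.426 and 1.13 in KO GFP-negative libraries, 19.8-fold higher (adjusted p = 0.00189), or 12.7-fold without KO GFP-positive replicate 1. CG4462 stood at 26.9, 17.1 and 2.86 in KO GFP-positive libraries, against 0.957, 0.675 and 1.26 in KO GFP-negative libraries, 16.2-fold higher (adjusted p = 0.00799), or 10.3-fold without KO GFP-positive replicate 1. CG15909, highest in KO GFP-positive replicate 2, stood at 4.72, 14.7 and 6.39 in KO GFP-positive libraries, against 0.556, 0.639 and 0.48 in KO GFP-negative libraries, 15.4-fold higher (adjusted p = 5.34e-05), or 9.94-fold without KO GFP-positive replicate 2. Of its exon bases, 34.4% are shared with an antisense RNA, whose reads cannot be told apart.

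Among the lower genes, those with the largest folds were likewise of several kinds. Fer3, a bHLH factor, averaged 0.292 ± 0.202 in KO GFP-positive cells and 15.7 ± 0.667 in KO GFP-negative cells (log2 difference -3.70, SE 0.18, adjusted p = 1.35e-08). It was 53.7-fold lower, or 88.9-fold without KO GFP-positive replicate 1. The forkhead gene fd96Cb averaged 0.116 ± 0.104 in KO GFP-positive cells and 5.35 ± 0.667 in KO GFP-negative cells (log2 difference -2.51, SE 0.18, adjusted p = 4.43e-07), with a few reads in each KO GFP-positive library. Dbx, a homeodomain factor, averaged 0.907 ± 0.414 in KO GFP-positive cells and 35.8 ± 2.4 in KO GFP-negative cells (adjusted p = 1.05e-08). gsb, a paired-domain factor of segment patterning, averaged 0.31 ± 0.139 in KO GFP-positive cells and 10.8 ± 1.91 in KO GFP-negative cells (adjusted p = 5.82e-08). Outside the transcription factors, Pex7, an import receptor of peroxisomes, averaged 2.48 ± 0.216 in KO GFP-positive cells and 84.6 ± 1.89 in KO GFP-negative cells, 34.1-fold lower (adjusted p = 5.08e-10). msb1l averaged 2.2 ± 0.955 in KO GFP-positive cells and 77.5 ± 5.37 in KO GFP-negative cells (adjusted p = 7.24e-09). CG13305 averaged 0.886 ± 0.078 in KO GFP-positive cells and 29.8 ± 4.22 in KO GFP-negative cells (adjusted p = 4.77e-09). In all 7 genes every KO GFP-positive library lay below every KO GFP-negative library, which the choice of these genes required.

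Neuronal genes were higher in KO GFP-positive cells, by less than the progenitor genes were lower. Of 21 pan-neuronal genes, 18 were higher and none lower (median log2 difference 1.08), against 15 higher and none lower in WT brains. fne, an RNA-binding protein of the ELAV family, stood at 1733, 1814 and 1668 in KO GFP-positive libraries, against 697, 709 and 750.5 in KO GFP-negative libraries (log2 difference 1.27, SE 0.10, adjusted p = 1.26e-06). Appl, the fly amyloid precursor protein, averaged 3908 ± 492 in KO GFP-positive cells and 1848 ± 149.99 in KO GFP-negative cells. The long noncoding RNA lncRNA:noe averaged 5940.5 ± 85.3 in KO GFP-positive cells and 2838 ± 373 in KO GFP-negative cells. elav, the classic marker of neurons, was not called, at 564, 602 and 622 in KO GFP-positive cells and 594, 589 and 703 in KO GFP-negative cells, with the groups overlapping. With quantile normalisation or equal library totals, 1 member was called lower. The adhesion protein Fas2 averaged 597 ± 29.8 in KO GFP-positive cells and 311 ± 19.9 in KO GFP-negative cells (adjusted p = 6.71e-06).

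Genes for synapses and excitability followed the same direction. Of 41 genes of synaptic vesicles and the active zone, 28 were higher (18 without KO GFP-positive replicate 2) and 2 lower (1 without KO GFP-positive replicate 2 or KO GFP-negative replicate 1, 2 or 3), with a median of 0.77. The vesicle SNARE nSyb stood at 905, 1475 and 825 in KO GFP-positive libraries, against 446, 550.2 and 292 in KO GFP-negative libraries (log2 difference 1.31, SE 0.29, adjusted p = 0.00337). unc-13, which primes vesicles, averaged 895 ± 71.1 in KO GFP-positive cells and 472 ± 25.3 in KO GFP-negative cells. The active zone scaffold Rim averaged 349 ± 64.8 in KO GFP-positive cells and 148 ± 28.5 in KO GFP-negative cells. Lower was Syb, a second synaptobrevin with wide expression outside neurons, which averaged 13.5 ± 0.544 in KO GFP-positive cells and 35.8 ± 7.59 in KO GFP-negative cells (adjusted p = 8.24e-05). Of 44 tested neurotransmitter receptor genes, 31 were higher and 1, the dopamine receptor Dop1R2, was lower (median 0.98). The call of Dop1R2 was lost without any 1 KO library other than KO GFP-positive replicate 2. Lcch3, a subunit of GABA-gated channels, averaged 142 ± 17.2 in KO GFP-positive cells and 57.3 ± 9.04 in KO GFP-negative cells. nAChRalpha1, a subunit of nicotinic receptors, averaged 249.8 ± 35.8 in KO GFP-positive cells and 90.99 ± 15.4 in KO GFP-negative cells. GABA-B-R2, a metabotropic GABA receptor, averaged 308 ± 23.8 in KO GFP-positive cells and 158 ± 15.1 in KO GFP-negative cells. Of 40 ion channel genes 18 were higher and 2 lower (1 without KO GFP-negative replicate 1 or 3), with a median of 0.73. The leak potassium channel gene Task6 was higher, at 183 ± 2.45 in KO GFP-positive cells and 88.1 ± 9.57 in KO GFP-negative cells. Its relative Task7 averaged 117 ± 14.1 in KO GFP-positive cells and 56.9 ± 3.64 in KO GFP-negative cells. Ih, the pacemaker channel, averaged 164 ± 43.2 in KO GFP-positive cells and 66.9 ± 14.7 in KO GFP-negative cells.

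These lists also varied together between libraries. In KO GFP-positive replicate 2, 41 of the 44 receptor genes and 36 of the 41 synaptic genes had their highest KO GFP-positive value, against 3439 of all 9912 genes. In KO GFP-negative replicate 2, which shares its run of title numbers and its lane, 38 and 35 of them had their highest KO GFP-negative value, against 3978 of 9912. KO GFP-positive replicate 2 is also the library farthest from the KO GFP-negative libraries on the first component. The part of this shared variation in the differences between fractions was not tested beyond leaving the libraries out.

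**Figure D3:**
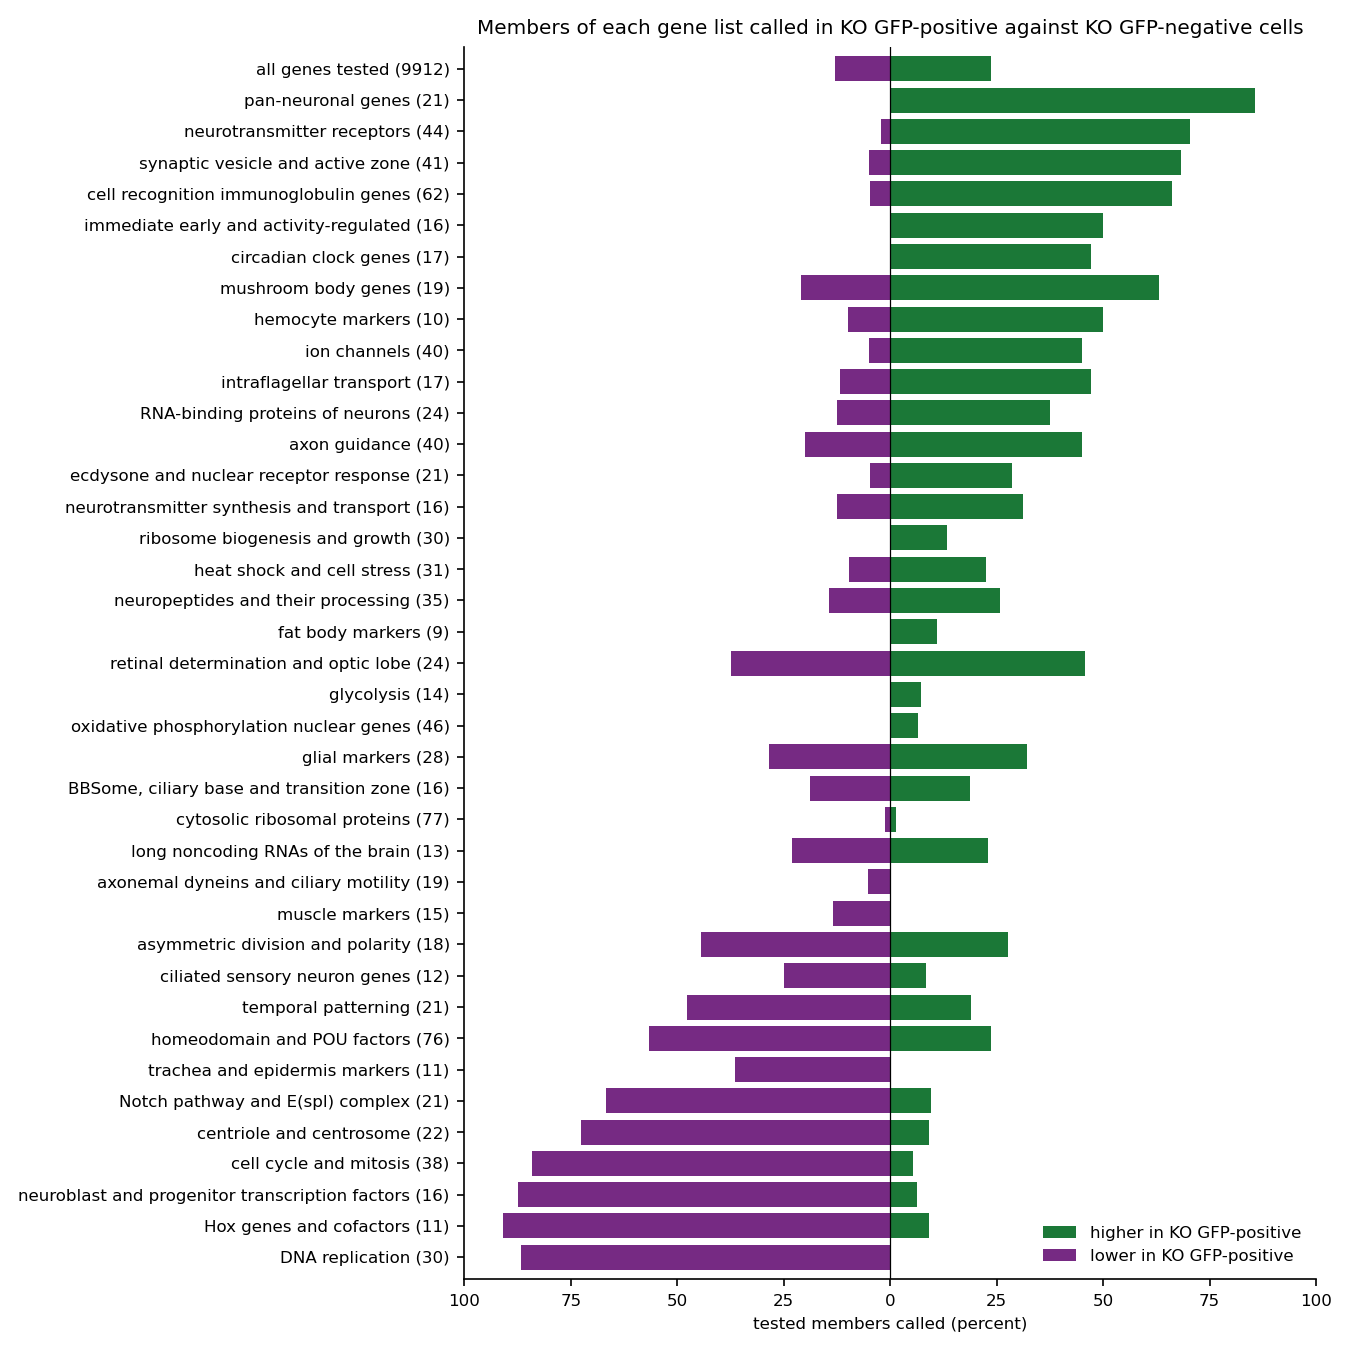
Share of the tested members of each gene list called higher (right of 0) or lower (left of 0) in KO GFP-positive than in KO GFP-negative cells, in percent, with the number of tested members after each name and all 9912 genes in the top row. Neuronal lists lean to the right and progenitor, replication, centriole and Hox lists to the left, while ribosomal protein, oxidative phosphorylation and glycolysis genes are almost empty. The fit shown has no replicate block, with which 11 of 14 glycolysis genes were called higher.

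Transmitter genes went in both directions. Of 16 genes of neurotransmitter synthesis and transport, 43.8% were called, against 36.5% of all genes tested. Higher were 5 (31.2%, against 23.6%) and lower 2 (12.5%, against 12.9%; 1 without KO GFP-positive replicate 1 or KO GFP-negative replicate 2). In the paired fit with the replicate block 9 were higher. VGlut, the vesicular glutamate transporter, stood at 1158, 2274 and 1186 in KO GFP-positive libraries, against 305, 408 and 211 in KO GFP-negative libraries (log2 difference 2.29, SE 0.29, adjusted p = 5.58e-05). Tdc2, which makes tyramine in neurons, stood at 59.3, 183 and 71.7 in KO GFP-positive libraries, against 2.53, 5.54 and 0.654 in KO GFP-negative libraries. Tdc2 was 36.001-fold higher (adjusted p = 7.41e-06), or 22.5-fold without KO GFP-positive replicate 2 and 65.8-fold without KO GFP-negative replicate 2. Tbh, the next enzyme of the pathway to octopamine, averaged 102 ± 32.6 in KO GFP-positive cells and 21.6 ± 10.7 in KO GFP-negative cells (adjusted p = 0.0011). VGAT, the vesicular GABA transporter, averaged 144 ± 17.1 in KO GFP-positive cells and 76.1 ± 14.97 in KO GFP-negative cells (adjusted p = 0.000523). prt, a vesicular transporter known from the mushroom bodies, was lower at 10.2 ± 5.2 in KO GFP-positive cells and 36.9 ± 2.53 in KO GFP-negative cells (adjusted p = 0.00146).

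Gad1, the enzyme that makes GABA, did not differ detectably between the KO fractions, at 318, 556 and 256 in KO GFP-positive libraries, against 416, 675 and 179.7 in KO GFP-negative libraries. Gad1 in WT brains stood at 21.6 ± 8.98 in WT GFP-positive cells and 366 ± 75.6 in WT GFP-negative cells, and the difference between the genotypes was called (interaction 4.02, SE 0.61, adjusted p = 0.00835). CG14989, an uncharacterised gene, had the same pattern, at 1147, 1556 and 924 in KO GFP-positive libraries, against 1171, 1512 and 843 in KO GFP-negative libraries. Its annotated span overlaps that of Gad1 by 1164 bases on the opposite strand, with no shared exon bases. CG14989 averaged 48.2 ± 15.05 in WT GFP-positive cells and 1131 ± 200.5 in WT GFP-negative cells (interaction 4.61, SE 0.38, adjusted p = 8.14e-05). The libraries kept no strand, and the part of one gene's reads in the other's value was not tested. Hdc, the enzyme that makes histamine, likewise stood at 7.04, 9.25 and 7.64 in KO GFP-positive cells and 6.3, 14.5 and 4.1 in KO GFP-negative cells. In WT brains the means were 1.00 ± 0.414 in WT GFP-positive cells and 12.8 ± 2.06 in WT GFP-negative cells (interaction 2.89, SE 0.47, adjusted p = 0.0129). The call of Hdc was lost without KO GFP-negative replicate 1 (adjusted p = 0.0509).

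Neuropeptide genes were mixed. Of 39 genes of neuropeptides and their processing in the table, 35 passed the floor, and 9 of these were higher (25.7%) and 5 lower (14.3%; 3 without KO GFP-positive replicate 1), shares near those of all genes tested (23.6% and 12.9%). In the paired fit with the replicate block 15 were higher. AstC, the gene of allatostatin C, stood at 61.7, 339.6 and 157 in KO GFP-positive libraries, against 8.7, 23.8 and 6.02 in KO GFP-negative libraries (log2 difference 3.65, SE 0.66, adjusted p = 0.000964). It was 14.5-fold higher, 8.51-fold without KO GFP-positive replicate 2 and 25.3-fold without KO GFP-negative replicate 2. Dh31, a diuretic hormone gene, stood at 191, 609 and 282 in KO GFP-positive libraries, against 39.05, 77.2 and 18.97 in KO GFP-negative libraries (adjusted p = 0.00254). It was 8.01-fold higher, 5.26-fold without KO GFP-positive replicate 2 and 12.4-fold without KO GFP-negative replicate 2. Genes of the processing pathway were higher too. amon, the prohormone convertase, averaged 448 ± 196 in KO GFP-positive cells and 158 ± 78.4 in KO GFP-negative cells (adjusted p = 0.00928). Its chaperone 7B2 averaged 573 ± 250.2 in KO GFP-positive cells and 134 ± 52.2 in KO GFP-negative cells (adjusted p = 0.00137). dimm, the bHLH factor of peptide-secreting cells, stood at 8.91, 7.95 and 10.7 in KO GFP-positive libraries, against 3.15, 2.95 and 3.23 in KO GFP-negative libraries (log2 difference 1.30, SE 0.24, adjusted p = 0.000979). The 5 lower genes were Pburs, Mip, CCAP, Burs and amn. CCAP, a cardioactive peptide, averaged 0.442 ± 0.403 in KO GFP-positive cells and 6.81 ± 5.58 in KO GFP-negative cells (adjusted p = 0.00747). Mip, a myoinhibitory peptide, averaged 0.863 ± 0.101 in KO GFP-positive cells and 11.9 ± 9.1 in KO GFP-negative cells (adjusted p = 0.00152). The bursicon subunit gene Pburs had no read in KO GFP-positive replicate 2 and stood at 0.225, 0 and 0.157 in KO GFP-positive libraries, against 7.04, 9.41 and 5.14 in KO GFP-negative libraries (adjusted p = 0.00139). The fold of CCAP, 15.4-fold lower, became 32.1-fold without KO GFP-positive replicate 2 and 8.16-fold without KO GFP-negative replicate 2, and that of Mip, 13.8-fold lower, became 8.13-fold without KO GFP-negative replicate 2. Burs, the other bursicon subunit, averaged 1.58 ± 0.926 in KO GFP-positive cells and 9.95 ± 6.11 in KO GFP-negative cells (adjusted p = 0.014), and its call was lost without KO GFP-positive replicate 1 or KO GFP-negative replicate 2 (adjusted p = 0.0549 to 0.0564). amn, a neuropeptide gene known from memory, averaged 23.8 ± 3.01 in KO GFP-positive cells and 39.2 ± 6.36 in KO GFP-negative cells (adjusted p = 0.0217), and its call was lost without KO GFP-positive replicate 1 or 2 or KO GFP-negative replicate 3 (adjusted p = 0.0619 to 0.0928).

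**Figure D4:**
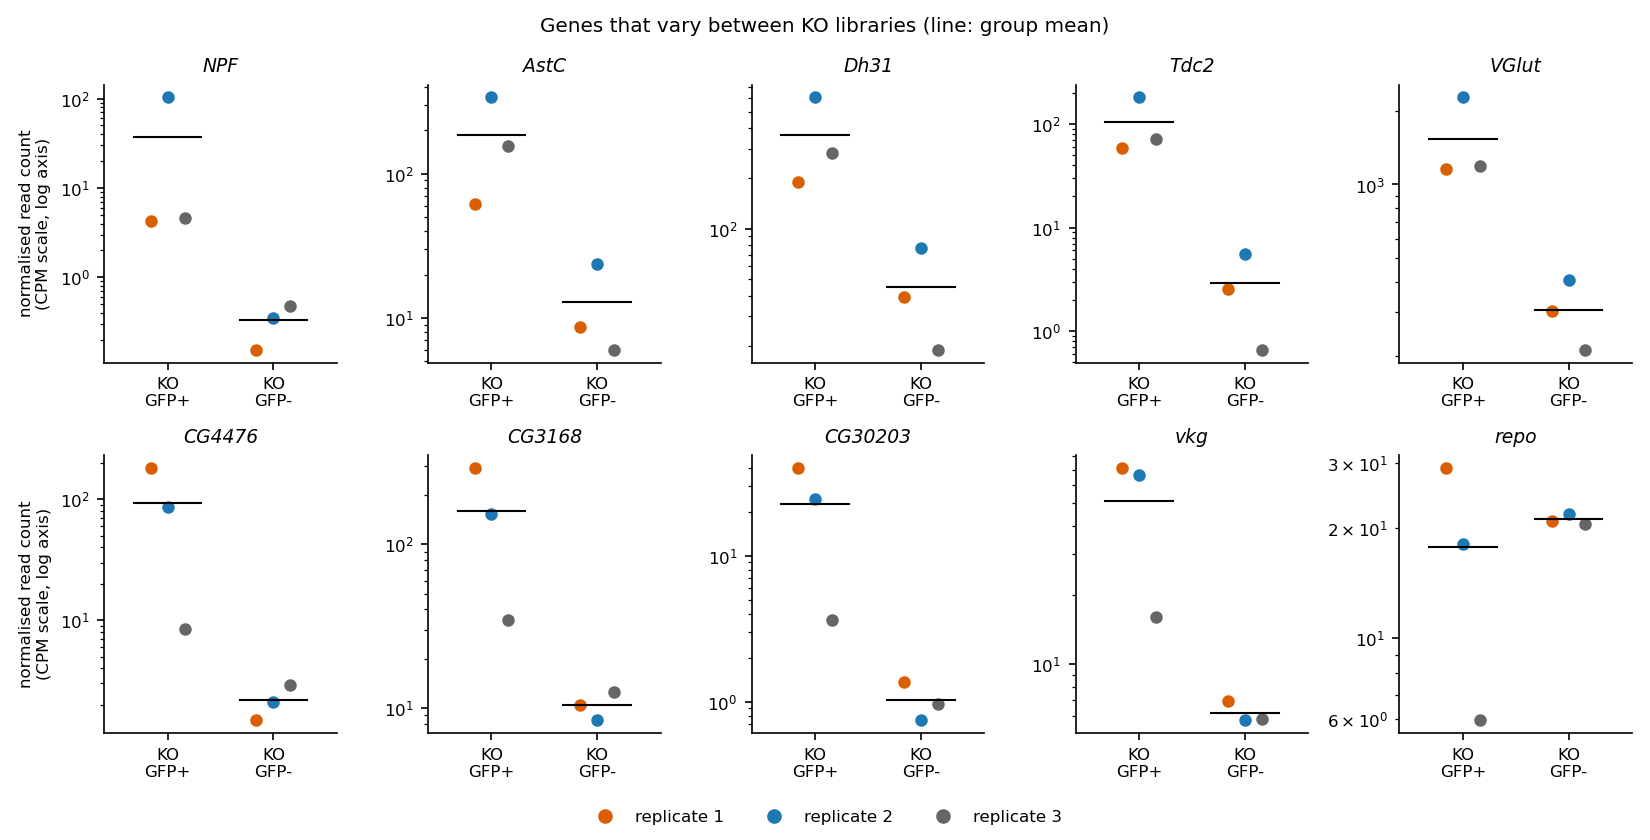
Normalised read count (CPM scale, log axis) of 10 genes in the 6 KO libraries, with KO GFP-positive libraries left of KO GFP-negative libraries, a colour for each replicate and a short line at each group mean. In the upper row, NPF, AstC, Dh31, Tdc2 and VGlut were highest in replicate 2 of the KO GFP-positive libraries, and in the lower row CG4476, CG3168, CG30203, vkg and repo were lowest in replicate 3.

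Markers of the other cell types of the brain were checked next. Summed over 5 neuroblast markers (wor, ase, dpn, mira and insc), values ran from 20.8 to 31.4 in KO GFP-positive libraries and from 1171 to 1331 in KO GFP-negative libraries. The 4 neuronal markers in the table summed to 2294 to 3612 in KO GFP-positive libraries and 1323 to 1798 in KO GFP-negative libraries. Sums of the 6 glial markers were 139 to 241 in KO GFP-positive libraries and 355 to 370 in KO GFP-negative libraries. Most of that difference was from Eaat1, at 11.5 to 21.0 in KO GFP-positive libraries and 224 to 256 in KO GFP-negative libraries. wrapper was lower too, Gs2 was higher in KO GFP-positive libraries, and repo, alrm and moody overlapped. Markers of hemocytes (3 of 4 in the table), fat body (2 of 3) and muscle (3 of 3) summed to at most 4.58, 1.61 and 4.23 in KO GFP-positive libraries and at most 6.82, 2.40 and 6.24 in KO GFP-negative libraries. The 3 trachea and epidermis markers in the table summed to 8.23 to 8.50 in KO GFP-positive libraries and 14.9 to 19.1 in KO GFP-negative libraries. The 3 of 4 ciliated sensory neuron markers summed to 95.2 to 171 in KO GFP-positive libraries and 39.1 to 72.2 in KO GFP-negative libraries, nearly all of it from eys. No marker in the table was at 0 in any KO library. Every gene of the table had reads in at least 8 of the 12 libraries of the series, so a marker silent in most libraries could not be counted. The GFP-negative fraction thus held neuroblast transcripts although its label is neuron, and the few summed markers of hemocytes, fat body and muscle were low in both fractions. Longer lists of such markers were set beside all genes tested, of which 23.6% were higher and 12.9% lower. Of 10 hemocyte genes 5 were higher (50%) and 1 lower (2 without KO GFP-positive replicate 3), with log2 differences from -1.48 to 2.62. The summed hemocyte markers thus do not stand for that list. Of 9 fat body genes 1 was higher (2 without KO GFP-positive replicate 3). Of the muscle genes, 2 of 15 were lower (1 without KO GFP-positive replicate 1 or 2 or KO GFP-negative replicate 1 or 3). Lower were also 4 of 11 trachea and epidermis genes (7 without KO GFP-positive replicate 3), and none was higher (1 without KO GFP-positive replicate 3).

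The glial list went in both directions, with a median of -0.02. Of its 28 genes 9 were higher (32.1%, against 23.6% of all genes tested) and 8 lower (28.6%, against 12.9%). repo, the factor that defines glia, stood at 29.2, 18.1 and 5.95 in KO GFP-positive cells and 20.9, 21.8 and 20.5 in KO GFP-negative cells and was not called. Eaat1, the glial glutamate transporter, stood at 19.6, 11.5 and 20.96 in KO GFP-positive libraries, against 224, 255 and 256 in KO GFP-negative libraries (log2 difference -3.78, SE 0.20, adjusted p = 2.32e-08). gcm, the switch to glial fate, averaged 3.25 ± 2.04 in KO GFP-positive cells and 56.1 ± 7.29 in KO GFP-negative cells (adjusted p = 6.6e-07). loco, a regulator of G protein signalling in glia, averaged 16.9 ± 7.77 in KO GFP-positive cells and 90.9 ± 9.35 in KO GFP-negative cells (adjusted p = 3.98e-06). gcm was 17.3-fold lower, or 26.0-fold without KO GFP-positive replicate 1. Gs2, glutamine synthetase, was higher, at 131 ± 39.7 in KO GFP-positive cells and 53.9 ± 17.5 in KO GFP-negative cells (adjusted p = 0.00189). Eaat2, a transporter also found in neurons, was higher too, at 363 ± 43.4 in KO GFP-positive cells and 122 ± 26.2 in KO GFP-negative cells (adjusted p = 8.26e-06). bnb, a further higher gene, stood at 41.3, 72.01 and 40.2 in KO GFP-positive libraries, against 6.98, 4.87 and 6.02 in KO GFP-negative libraries (log2 difference 2.87, SE 0.24, adjusted p = 1.43e-06). The difference of bnb was larger in KO than in WT brains, where it stood at 16.8 ± 1.94 in WT GFP-positive cells and 10.2 ± 2.81 in WT GFP-negative cells (interaction 2.18, SE 0.34, adjusted p = 0.0105). The collagen IV subunit vkg, a gene of basement membranes that glia, hemocytes and fat body all make, stood at 71.4, 66.4 and 16.1 in KO GFP-positive libraries, against 6.91, 5.72 and 5.8 in KO GFP-negative libraries (adjusted p = 0.00166). KO GFP-positive replicate 3 had the lowest KO GFP-positive value for 21 of the 28 glial genes.

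Transcription factors of the retinal network went in both directions. Of 24 genes of retinal determination and the optic lobe 11 were higher (45.8%, against 23.6% of all genes tested) and 9 lower (37.5%, against 12.9%). eya, a phosphatase and co-activator of the retinal network, stood at 472, 416 and 396 in KO GFP-positive libraries, against 79.3, 95.99 and 70.9 in KO GFP-negative libraries (log2 difference 2.38, SE 0.13, adjusted p = 4.85e-08). Its partner so, a homeodomain factor, stood at 93.2, 62.1 and 88.6 in KO GFP-positive libraries, against 7.22, 14.6 and 8.68 in KO GFP-negative libraries (adjusted p = 1.43e-06). The related Six4 averaged 48.1 ± 5.96 in KO GFP-positive cells and 8.14 ± 1.49 in KO GFP-negative cells (adjusted p = 2.25e-07). toy, a Pax6 factor, averaged 653 ± 41.02 in KO GFP-positive cells and 300.2 ± 21.1 in KO GFP-negative cells (adjusted p = 7.46e-07). Sobp, named as a binding partner of so, averaged 23.005 ± 2.22 in KO GFP-positive cells and 2.39 ± 0.527 in KO GFP-negative cells. dac, a further member of the network, stood at 239.5, 262 and 246 in KO GFP-positive libraries, against 138, 132 and 146 in KO GFP-negative libraries (log2 difference 0.84, SE 0.09, adjusted p = 1.82e-05). In WT brains it averaged 132 ± 12.98 in WT GFP-positive cells and 145 ± 7.31 in WT GFP-negative cells (interaction 0.98, SE 0.13, adjusted p = 0.00299). tll, a nuclear receptor of optic lobe progenitors, was lower, at 6.75 ± 1.29 in KO GFP-positive cells and 55.4 ± 7.53 in KO GFP-negative cells (adjusted p = 1.12e-07). Rx, a homeodomain factor, was lower too, at 16.6 ± 1.84 in KO GFP-positive cells and 49.02 ± 4.83 in KO GFP-negative cells (adjusted p = 6.16e-06).

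Homeodomain and POU factors as a class were mostly lower, 43 of 76 tested (56.6%, against 12.9% of all genes tested), with a median of -0.94. Higher were 18, or 23.7%, near the 23.6% of all genes tested. The homeodomain gene CG18599 stood at 114, 104 and 109 in KO GFP-positive libraries, against 7.53, 6.53 and 8.76 in KO GFP-negative libraries, 14.3-fold higher (log2 difference 3.68, SE 0.15, adjusted p = 5.19e-09). NK7.1 averaged 168 ± 12.7 in KO GFP-positive cells and 57.2 ± 1.83 in KO GFP-negative cells. Gsc, a homeodomain factor, averaged 47.7 ± 6.71 in KO GFP-positive cells and 8.35 ± 1.73 in KO GFP-negative cells. CG4328, a LIM-homeodomain gene, averaged 123 ± 8.48 in KO GFP-positive cells and 22.9 ± 1.96 in KO GFP-negative cells. CG11294 had the lowest log2 difference of these genes, at 2.06, 1.8 and 2.23 in KO GFP-positive libraries, against 126, 98.2 and 139.7 in KO GFP-negative libraries, 59.8-fold lower (log2 difference -5.32, SE 0.17, adjusted p = 5.08e-10). Ptx1 averaged 1.82 ± 0.567 in KO GFP-positive cells and 60.7 ± 2.38 in KO GFP-negative cells. vvl, a POU factor, averaged 5.48 ± 1.18 in KO GFP-positive cells and 54.3 ± 7.99 in KO GFP-negative cells. vg, a co-factor known from wing development and not a homeodomain protein, stood at 148, 156 and 158 in KO GFP-positive libraries, against 16.5, 12.8 and 15.7 in KO GFP-negative libraries (log2 difference 3.29, SE 0.11, adjusted p = 8.23e-10). Its difference was larger than in WT brains, at 87.5 ± 5.64 in WT GFP-positive cells and 16.97 ± 1.09 in WT GFP-negative cells (interaction 0.99, SE 0.16, adjusted p = 0.0129). That was not called with quantile normalisation (adjusted p = 0.123).

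Hox genes and their cofactors were nearly all lower, 10 of 11, with 1 higher (median -2.77; 10 lower and 1 higher in WT). Antp, the Hox gene of the thorax, stood at 3.37, 4.39 and 7.6 in KO GFP-positive libraries, against 141, 149 and 149.9 in KO GFP-negative libraries (log2 difference -4.65, SE 0.23, adjusted p = 1.48e-08). Ubx averaged 1.2 ± 0.558 in KO GFP-positive cells and 26.7 ± 4.28 in KO GFP-negative cells. abd-A averaged 6.14 ± 0.83 in KO GFP-positive cells and 43.9996 ± 7.59 in KO GFP-negative cells. Of the others, Scr averaged 1.23 ± 0.425 in KO GFP-positive cells and 17.1 ± 1.53 in KO GFP-negative cells. Abd-B, the most posterior, averaged 1.34 ± 0.55 in KO GFP-positive cells and 15.2 ± 4.76 in KO GFP-negative cells. tsh, a trunk zinc-finger factor, averaged 16.2 ± 2.83 in KO GFP-positive cells and 219.7 ± 27.3 in KO GFP-negative cells (adjusted p = 8.13e-09). The cofactor hth was lower by less, at 202 ± 12.04 in KO GFP-positive cells and 319 ± 12.3 in KO GFP-negative cells. The cofactor exd was the higher one, at 696 ± 42.8 in KO GFP-positive cells and 537 ± 16.7 in KO GFP-negative cells (adjusted p = 0.00599). With quantile normalisation, with equal library totals and within lane 7, exd was not called.

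Temporal patterning genes include factors that neuroblasts express one after another and factors of neurons. Of 21 genes 10 were lower (47.6%, against 12.9% of all genes tested). Higher were 4, or 19%, against 23.6% (2 genes without KO GFP-negative replicate 3). cas stood at 15.98, 19.9 and 30.05 in KO GFP-positive libraries, against 481, 478 and 596 in KO GFP-negative libraries (log2 difference -4.54, SE 0.22, adjusted p = 1.28e-08). slp2, expressed late in the optic lobe series, averaged 5.22 ± 1.78 in KO GFP-positive cells and 165 ± 15.4 in KO GFP-negative cells. opa averaged 33.6 ± 1.27 in KO GFP-positive cells and 253 ± 33.8 in KO GFP-negative cells. opa differed more strongly in KO than in WT brains, where it stood at 77.4 ± 10.9 in WT GFP-positive cells and 222 ± 30.5 in WT GFP-negative cells (interaction -1.36, SE 0.19, adjusted p = 0.0037). chinmo, which marks early-born neurons, was higher, at 737 ± 36.03 in KO GFP-positive cells and 475 ± 4.35 in KO GFP-negative cells (adjusted p = 0.000297). So was bsh, a homeodomain factor of optic lobe neurons, at 71.5 ± 9.17 in KO GFP-positive cells and 28.02 ± 5.4 in KO GFP-negative cells (adjusted p = 1.53e-05). Of 19 mushroom body genes 12 were higher and 4 lower (2 without KO GFP-positive replicate 3 or KO GFP-negative replicate 1, 2 or 3). rn, a zinc-finger factor, averaged 268 ± 51.7 in KO GFP-positive cells and 77.8 ± 5.92 in KO GFP-negative cells (adjusted p = 5.16e-07). ab averaged 109 ± 4.14 in KO GFP-positive cells and 55.4 ± 8.39 in KO GFP-negative cells (adjusted p = 1.53e-05).

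Genes of the cilium, the best known targets of Rfx proteins, differed between the genotypes for some parts of the machinery and not for others. Of 19 intraflagellar transport genes in the table, 17 passed the floor. In KO GFP-positive cells 8 were higher (47.1%, against 23.6% of all genes tested) and 2 lower (11.8%, near 12.9%). Leaving out any 1 of the 6 KO libraries left 1 lower. In WT brains 11 were higher and 1 lower, where 25.7% and 12.3% of all genes tested were called. The interaction called 4 of the 17, all with a lower difference in KO brains. The kinesin-2 motor that drives the trains outward was higher in KO GFP-positive cells. Its subunit Klp68D stood at 209, 209 and 159.7 in KO GFP-positive libraries, against 90.4, 88.3 and 73.7 in KO GFP-negative libraries (log2 difference 1.18, SE 0.12, adjusted p = 8.74e-06). Klp64D averaged 176 ± 17.2 in KO GFP-positive cells and 90.5 ± 7.82 in KO GFP-negative cells (adjusted p = 3.44e-05). Kap3 averaged 248 ± 16.8 in KO GFP-positive cells and 136 ± 6.19 in KO GFP-negative cells (adjusted p = 1.05e-05). The complex A subunit Oseg1 was higher too, at 31.5 ± 2.85 in KO GFP-positive cells and 16.7 ± 4.34 in KO GFP-negative cells (adjusted p = 0.00071). Oseg6, of the same complex, averaged 49.2 ± 10.7 in KO GFP-positive cells and 19.1 ± 0.847 in KO GFP-negative cells (adjusted p = 2.18e-05). None of these 5 genes was called for the interaction.

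The 4 genes called for the interaction were nompB, IFT52 and IFT57 of complex B and IFT43 of complex A. nompB, the fly IFT88, stood at 1.76, 4.58 and 1.68 in KO GFP-positive libraries, against 0.648, 0.497 and 1.22 in KO GFP-negative libraries. It was called higher (log2 difference 0.97, SE 0.27, adjusted p = 0.0131) but not without KO GFP-positive replicate 2 (adjusted p = 0.0522). In WT brains it stood at 134 ± 6.1 in WT GFP-positive cells and 1.49 ± 0.403 in WT GFP-negative cells (interaction -4.80, SE 0.38, adjusted p = 6.41e-05). IFT52 stood at 0.112, 0.157 and 0.588 in KO GFP-positive libraries, against 1.51, 1.28 and 1.87 in KO GFP-negative libraries, lower in KO GFP-positive cells (log2 difference -1.003, SE 0.23, adjusted p = 0.00483). WT brains had 23.4 ± 2.98 in WT GFP-positive cells and 1.7 ± 0.813 in WT GFP-negative cells (interaction -4.22, SE 0.33, adjusted p = 6.41e-05). IFT57 averaged 1.72 ± 0.287 in KO GFP-positive cells and 0.36 ± 0.209 in KO GFP-negative cells. The WT values were 12.6 ± 2.39 in WT GFP-positive cells and 0.41 ± 0.268 in WT GFP-negative cells (interaction -2.27, SE 0.30, adjusted p = 0.00238). The interaction of IFT57 was not called with edgeR (adjusted p = 0.194) or with a pseudocount of 0.1 in limma (0.107). For the complex A subunit IFT43 the means were 2.34 ± 0.245 in KO GFP-positive cells and 3.72 ± 0.195 in KO GFP-negative cells. In WT brains the means were 9.24 ± 1.3 in WT GFP-positive cells and 3.76 ± 1.03 in WT GFP-negative cells, with opposite calls in the genotypes (interaction -1.62, SE 0.26, adjusted p = 0.0128). The call of IFT43 in KO brains was lost without any 1 of the 6 KO libraries (adjusted p = 0.0554 to 0.128). IFT54 was higher in KO GFP-positive cells, at 26.1 ± 3.63 in KO GFP-positive cells and 13.4 ± 1.62 in KO GFP-negative cells (adjusted p = 0.000934). WT brains had 1.14 ± 0.193 in WT GFP-positive cells and 1.01 ± 0.0863 in WT GFP-negative cells, and the interaction was not called (adjusted p = 0.294).

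The ciliary base and transition zone showed both patterns. Of 16 tested genes 3 were higher and 3 lower (1 without KO GFP-negative replicate 3), or 37.5% against 36.5% of all genes, and in WT 8 were higher and 2 lower. The interaction called 4 of the 16. Cep290, which links the transition zone to the membrane, stood at 127, 101 and 107 in KO GFP-positive libraries, against 13.6, 16.8 and 10.6 in KO GFP-negative libraries, 8.17-fold higher (log2 difference 2.96, SE 0.20, adjusted p = 1.9e-07). The interaction did not call Cep290 (adjusted p = 0.191, limma), but with DESeq2 it did, with a lower difference in KO brains (-1.14, adjusted p = 0.0379). Fam92, a partner of Chibby at the base, averaged 7.12 ± 1.72 in KO GFP-positive cells and 1.55 ± 0.703 in KO GFP-negative cells, higher in KO GFP-positive cells (adjusted p = 6.6e-05). WT brains had 70.8 ± 9.99 in WT GFP-positive cells and 2.48 ± 0.0876 in WT GFP-negative cells (interaction -2.68, SE 0.31, adjusted p = 0.00115). dila, a coiled-coil protein of the transition zone, averaged 6.71 ± 2.6 in KO GFP-positive cells and 2.43 ± 0.761 in KO GFP-negative cells (adjusted p = 0.00518). The interaction did not call dila in the main fit. With the replicate block it did (-1.63, adjusted p = 0.0147), as with quantile normalisation (0.0408) and without KO GFP-positive replicate 1 (0.0483). dnd, an Arl3-type GTPase, stood at 0.112, 0.0392 and 0.627 in KO GFP-positive cells and 0.123, 0.568 and 0.698 in KO GFP-negative cells. The WT values were 8.38 ± 0.894 in WT GFP-positive cells and 0.954 ± 0.42 in WT GFP-negative cells (interaction -2.50, SE 0.34, adjusted p = 0.00341). The interaction of dnd was not called with edgeR (adjusted p = 0.328) or with a pseudocount of 0.1 in limma (0.11). More than 25% of the exon bases of dnd are shared with a gene on the opposite strand, whose reads cannot be told apart. Root, the rootlet protein, averaged 10.2 ± 2.55 in KO GFP-positive cells and 16.9 ± 2.79 in KO GFP-negative cells (adjusted p = 0.0225). In WT brains the means were 33.5 ± 6.76 in WT GFP-positive cells and 16.6 ± 2.7 in WT GFP-negative cells (interaction -1.65, SE 0.30, adjusted p = 0.0248). Its call in KO brains was lost without KO GFP-positive replicate 2 or KO GFP-negative replicate 3 (adjusted p = 0.0967 to 0.105), and its interaction without KO GFP-negative replicate 1, 2 or 3 (adjusted p = 0.0552 to 0.0838). B9d1, a transition zone protein, stood at 0.15, 0.627 and 0.0392 in KO GFP-positive cells and 0.401, 0.284 and 0.262 in KO GFP-negative cells. It reached 1 only in the 3 WT GFP-positive libraries, so it was among the genes tested only through the group where it was high. B9d1 averaged 3.19 ± 0.561 in WT GFP-positive cells and 0.47 ± 0.259 in WT GFP-negative cells (interaction -1.59, SE 0.32, adjusted p = 0.0487). That call was lost without any 1 KO library other than KO GFP-positive replicate 2 (adjusted p = 0.104 to 0.166). ktub, the Tubby protein that delivers receptors to cilia, was lower in KO GFP-positive cells, at 14.8 ± 3.13 in KO GFP-positive cells and 77.9 ± 3.77 in KO GFP-negative cells (adjusted p = 2.92e-07).

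Most motility and sensory genes were low in the KO libraries. Of 19 tested axonemal genes 1 was lower (5.26%, against 12.9% of all genes tested) and none higher. In the paired fit with the replicate block 4 were lower, and 2 without KO GFP-negative replicate 2, 3 without KO GFP-positive replicate 3. The lower gene was nmdyn-D7. This gene, a nucleoside diphosphate kinase of the axoneme, stood at 1.83, 1.45 and 2.15 in KO GFP-positive libraries, against 5.8, 11.3 and 11.8 in KO GFP-negative libraries (log2 difference -1.87, SE 0.24, adjusted p = 5.38e-05). WT brains had 21.9 ± 3.41 in WT GFP-positive cells and 8.56 ± 1.27 in WT GFP-negative cells (interaction -3.13, SE 0.34, adjusted p = 0.000645). hmw, an axonemal gene of ciliated cells, stood at 0.299, 0.705 and 0.509 in KO GFP-positive cells and 0.679, 0.568 and 0.567 in KO GFP-negative cells. WT brains had 20.6 ± 2.82 in WT GFP-positive cells and 1.12 ± 0.498 in WT GFP-negative cells (interaction -3.47, SE 0.29, adjusted p = 8.24e-05). The dynein heavy chain Dhc62B stood at 0.786, 1.06 and 3.33 in KO GFP-positive cells and 4.88, 2.7 and 4.05 in KO GFP-negative cells, with KO GFP-positive replicate 3 above KO GFP-negative replicate 2. Dhc62B was not called (adjusted p = 0.0889), but it was with the replicate block (adjusted p = 0.0436) and without KO GFP-positive replicate 3 (adjusted p = 0.0193). Of 12 ciliated sensory neuron genes 1 was higher (2 without KO GFP-positive replicate 1) and 3 lower. The 33.3% called was no larger a share than the 36.5% of all genes tested. pyx, a channel gene of the TRP family, was lower, at 0.794 ± 0.879 in KO GFP-positive cells and 4.61 ± 1.18 in KO GFP-negative cells (adjusted p = 0.000959), by 5.81-fold, and by 15.9-fold without KO GFP-positive replicate 3. ato, the proneural gene of chordotonal organs, averaged 0.458 ± 0.344 in KO GFP-positive cells and 2.59 ± 0.596 in KO GFP-negative cells (adjusted p = 0.000699). unc, a protein of the ciliary base, averaged 1.49 ± 0.418 in KO GFP-positive cells and 3.96 ± 0.501 in KO GFP-negative cells (adjusted p = 0.024), and its call was lost without KO GFP-positive replicate 1 or KO GFP-negative replicate 1 or 3 (adjusted p = 0.0668 to 0.0853). The mechanosensory channel gene nompC averaged 1.9 ± 0.584 in KO GFP-positive cells and 3.19 ± 1.15 in KO GFP-negative cells. iav, another channel gene of the hearing organ, averaged 1.55 ± 0.358 in KO GFP-positive cells and 1.98 ± 0.700 in KO GFP-negative cells, and neither was called. eys, a secreted protein of photoreceptor and chordotonal lumens, was the higher gene, at 105, 168 and 90.8 in KO GFP-positive libraries, against 45.6, 68.7 and 34.2 in KO GFP-negative libraries (adjusted p = 0.00144). Ir25a, a co-receptor of chemosensory neurons, stood at 1.16, 1.41 and 2.15 in KO GFP-positive cells and 1.67, 1.31 and 1.13 in KO GFP-negative cells and was not called in KO brains. Ir25a averaged 13.8 ± 5.15 in WT GFP-positive cells and 2.48 ± 0.483 in WT GFP-negative cells (interaction -1.94, SE 0.34, adjusted p = 0.0236). That interaction was lost without KO GFP-positive replicate 1 or 2 or KO GFP-negative replicate 1 or 2 (adjusted p = 0.0554 to 0.0836).

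**Figure D5:**
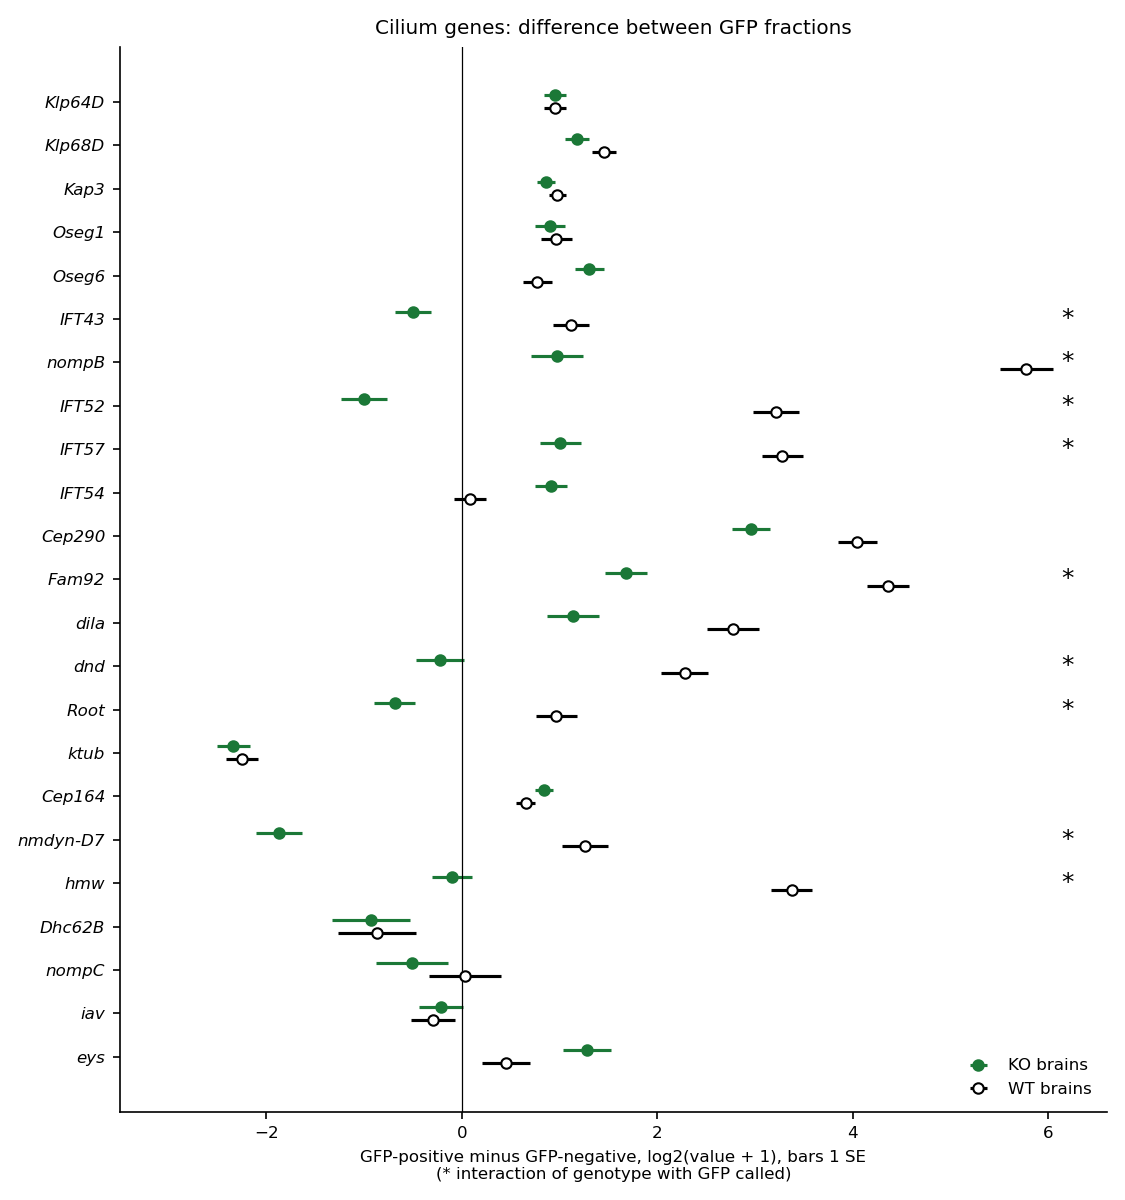
Log2 difference (of value + 1) between GFP-positive and GFP-negative cells for tested cilium genes, with filled circles for KO brains drawn above open circles for WT brains, bars of 1 SE and stars at genes called for the interaction. For the kinesin-2 subunits Klp64D, Klp68D and Kap3 the circles lie close together, while for nompB, IFT52, hmw, nmdyn-D7, Fam92 and dnd they lie far apart and carry stars.

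Cell recognition genes were broadly higher. Of 62 immunoglobulin genes of the dpr, DIP, side and beat families 41 were higher (27 without KO GFP-positive replicate 2) and 3 lower (1 without KO GFP-positive replicate 1 and 6 with quantile normalisation or equal library totals), with a median of 0.93. In WT brains 28 were higher and 6 lower. dpr7 stood at 618, 607 and 561 in KO GFP-positive libraries, against 270.3, 312 and 271 in KO GFP-negative libraries (log2 difference 1.06, SE 0.10, adjusted p = 5.07e-06). dpr19 averaged 310.1 ± 55.9 in KO GFP-positive cells and 149.9 ± 23.3 in KO GFP-negative cells. dpr21 averaged 199 ± 41.9 in KO GFP-positive cells and 67.2 ± 20.9 in KO GFP-negative cells. DIP-beta averaged 107 ± 37.5 in KO GFP-positive cells and 33.2 ± 7.22 in KO GFP-negative cells (adjusted p = 0.000121). The WT values were 33.7 ± 5.04 in WT GFP-positive cells and 39.1 ± 5.94 in WT GFP-negative cells (interaction 1.84, SE 0.32, adjusted p = 0.022). That interaction was lost without KO GFP-negative replicate 1 or 3 (adjusted p = 0.0609 to 0.0706). DIP-theta had a smaller difference in KO than in WT brains, at 97.7 ± 12.3 in KO GFP-positive cells and 27.2 ± 6.004 in KO GFP-negative cells. In WT brains the means were 198 ± 10.2 in WT GFP-positive cells and 22.8 ± 1.16 in WT GFP-negative cells (interaction -1.24, SE 0.21, adjusted p = 0.0206). This one was lost without KO GFP-negative replicate 1 (adjusted p = 0.0782). DIP-eta was lower, at 17.5 ± 0.405 in KO GFP-positive cells and 36.1 ± 4.02 in KO GFP-negative cells (adjusted p = 0.000618).

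Axon guidance genes were split, with 18 of 40 higher (45%, against 23.6% of all genes tested) and 8 lower (20%, against 12.9%). With equal library totals 10 were higher. robo1, the receptor for the midline repellent Slit, stood at 426, 424 and 371 in KO GFP-positive libraries, against 209, 233 and 209.8 in KO GFP-negative libraries (log2 difference 0.90, SE 0.10, adjusted p = 2.35e-05). The teneurin Ten-a averaged 664 ± 91.3 in KO GFP-positive cells and 319 ± 13.2 in KO GFP-negative cells. The leucine-rich repeat receptor Toll-6 averaged 283 ± 19.9 in KO GFP-positive cells and 105 ± 16.1 in KO GFP-negative cells. drl, a receptor for Wnt5, was lower, at 119.8, 139.6 and 110.2 in KO GFP-positive libraries, against 483, 524 and 613 in KO GFP-negative libraries (log2 difference -2.12, SE 0.14, adjusted p = 1.41e-07). Its relative Drl-2 was higher, at 136 ± 14.1 in KO GFP-positive cells and 74.3 ± 4.87 in KO GFP-negative cells (adjusted p = 4.4e-05). The netrin receptor fra stood at 429, 426 and 363 in KO GFP-positive cells and 391, 440.1 and 388 in KO GFP-negative cells, with the groups overlapping. Wnt10, a secreted ligand, averaged 92.3 ± 8.92 in KO GFP-positive cells and 10.5 ± 3.08 in KO GFP-negative cells (adjusted p = 1.9e-07).

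Clock genes added to the higher side, while the balance of RNA-binding proteins of neurons depended on the scaling. Of 17 circadian clock genes 8 were higher (47.1%, against 23.6% of all genes tested) and none lower. tim, the partner of period, stood at 94.2, 78.5 and 79.2 in KO GFP-positive libraries, against 9.88, 6.14 and 9.98 in KO GFP-negative libraries, 9.69-fold higher (log2 difference 3.16, SE 0.21, adjusted p = 1.55e-07). Clk, which drives its transcription, averaged 7.26 ± 1.46 in KO GFP-positive cells and 1.26 ± 0.352 in KO GFP-negative cells (adjusted p = 6.21e-05). The neuropeptide gene Pdf of the clock network stood at 0.973, 1.88 and 0.901 in KO GFP-positive cells and 2.47, 7.17 and 0.436 in KO GFP-negative cells and was not called. Among 24 RNA-binding protein genes 9 were higher (37.5%, against 23.6% of all genes tested) and 3 lower (12.5%, near 12.9%), with a median of 0.27. With quantile normalisation 7 were higher and 6 lower, and with equal library totals 8 and 6. The median was 0.04 in both of these fits. bru3, of the Bruno family, averaged 872 ± 179 in KO GFP-positive cells and 260.2 ± 16.8 in KO GFP-negative cells (adjusted p = 7.82e-06). shep averaged 1236 ± 161 in KO GFP-positive cells and 559 ± 43.5 in KO GFP-negative cells (adjusted p = 7.94e-05). how, a STAR-family splicing regulator, was lower at 3.65 ± 0.664 in KO GFP-positive cells and 27.5 ± 2.51 in KO GFP-negative cells (adjusted p = 5.5e-08). Of 21 genes of the ecdysone response 6 were higher and 1 lower (2 without KO GFP-positive replicate 2, 3 without KO GFP-positive replicate 3), and the 33.3% called was no larger a share than the 36.5% of all genes. The hormone receptor gene EcR averaged 278 ± 21.6 in KO GFP-positive cells and 157 ± 23.6 in KO GFP-negative cells (adjusted p = 0.000265). Hr51, a nuclear receptor, was lower at 7.86 ± 2.08 in KO GFP-positive cells and 35.2 ± 3.08 in KO GFP-negative cells (adjusted p = 4.2e-06). It was lower by less than in WT brains, at 1.5 ± 0.451 in WT GFP-positive cells and 32.7 ± 3.05 in WT GFP-negative cells (interaction 1.72, SE 0.27, adjusted p = 0.012). Of 16 immediate early and activity-regulated genes 8 were higher, or 50%, against 23.6% of all genes tested (5 genes without KO GFP-positive replicate 2). Arc1, a Gag-like capsid protein of synapses, averaged 20.96 ± 10.8 in KO GFP-positive cells and 6.39 ± 1.6 in KO GFP-negative cells (adjusted p = 0.0021).

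Few genes of ribosomal proteins and oxidative phosphorylation were called, and the count of glycolysis genes depended on the fit. Of 77 tested cytosolic ribosomal protein genes 1 was higher and 1 lower (2 without KO GFP-positive replicate 3 or KO GFP-negative replicate 1; median -0.15), though 10 were lower with quantile normalisation or equal library totals and 9 in the paired fit with the replicate block. RpL4 stood at 447, 575 and 641 in KO GFP-positive cells and 461, 624 and 572 in KO GFP-negative cells. These genes varied by run: 76 of the 77 had their lowest KO GFP-positive value in replicate 1, and all 77 had their lowest KO GFP-negative value in replicate 1. Of 46 nuclear genes of oxidative phosphorylation 3 were higher (0 without KO GFP-positive replicate 2 or KO GFP-negative replicate 3, 1 without KO GFP-negative replicate 1, 5 without KO GFP-positive replicate 3), and with quantile normalisation or equal library totals 0 were higher and 4 lower. In replicate 2, 44 of the 46 had their highest KO GFP-positive value and 45 their highest KO GFP-negative value. Of 14 glycolysis genes 1 was higher (0 without KO GFP-positive replicate 1 or 2 or KO GFP-negative replicate 1 or 3, 4 without KO GFP-negative replicate 2), and 11 in the paired fit with the replicate block. Both fractions of replicate 2 were high for 13 of the 14. The enolase gene Eno, for instance, stood at 1604, 2813 and 1632 in KO GFP-positive libraries, against 1107, 1664 and 830.5 in KO GFP-negative libraries (log2 difference 0.75, adjusted p = 0.1), and it was called with the replicate block (adjusted p = 0.00161). Of 30 genes of ribosome biogenesis and growth 4 were higher (2 without KO GFP-negative replicate 3), or 13.3%, below the 23.6% of all genes tested. With equal library totals 0 were higher and 4 lower. Of 31 genes of heat shock and cell stress 7 were higher and 3 lower, or 32.3% called, near the 36.5% of all genes tested. Higher were 11 with the replicate block and 1 with quantile normalisation or equal library totals. Leaving out KO GFP-negative replicate 1 gave 3 higher, and leaving out KO GFP-positive replicate 2 gave 4. Thor, the translation repressor 4E-BP, was higher, at 639, 676 and 544 in KO GFP-positive libraries, against 182, 217 and 126 in KO GFP-negative libraries (log2 difference 1.85, SE 0.21, adjusted p = 1.94e-05). The heat shock gene Hsp26 overlapped between the fractions, at 1925, 1843 and 2849 in KO GFP-positive cells and 2027, 2388 and 4195 in KO GFP-negative cells.

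The 9 genes with opposite calls in the genotypes included no other cilium gene than IFT52, IFT43, nmdyn-D7 and Root. otp, a homeodomain factor of neurosecretory neurons, stood at 3.78, 29.7 and 4.23 in KO GFP-positive libraries, against 37.01, 35.7 and 35.4 in KO GFP-negative libraries (log2 difference -2.02, SE 0.50, adjusted p = 0.00755). In WT brains it stood at 542 ± 16.6 in WT GFP-positive cells and 48.1 ± 0.776 in WT GFP-negative cells (interaction -5.48, SE 0.71, adjusted p = 0.00238). It was 2.87-fold lower in KO GFP-positive cells, or 9.003-fold without KO GFP-positive replicate 2. KO GFP-positive replicate 2 stood apart here, near the KO GFP-negative values. The organic anion transporter gene Oatp26F stood at 3.07, 5.84 and 5.13 in KO GFP-positive libraries, against 16.8, 17.7 and 20.1 in KO GFP-negative libraries. WT brains had 142 ± 10.5 in WT GFP-positive cells and 24.1 ± 6.57 in WT GFP-negative cells (interaction -4.34, SE 0.31, adjusted p = 5.96e-05). 3 genes were higher in KO GFP-positive cells and lower in WT GFP-positive cells. comm, which keeps Robo off growth cones, averaged 127 ± 16.7 in KO GFP-positive cells and 84.2 ± 0.577 in KO GFP-negative cells. WT brains had 58.9 ± 4.48 in WT GFP-positive cells and 78.7 ± 11.7 in WT GFP-negative cells (interaction 0.99, SE 0.18, adjusted p = 0.0237). SKIP averaged 471 ± 62.1 in KO GFP-positive cells and 368 ± 29.7 in KO GFP-negative cells. The WT means were 252 ± 21.5 in WT GFP-positive cells and 348 ± 14.1 in WT GFP-negative cells (interaction 0.82, SE 0.16, adjusted p = 0.0409). lncRNA:CR44042 averaged 9.44 ± 1.91 in KO GFP-positive cells and 4.64 ± 0.358 in KO GFP-negative cells. In WT brains it averaged 1.47 ± 0.183 in WT GFP-positive cells and 2.57 ± 0.507 in WT GFP-negative cells (interaction 1.40, SE 0.26, adjusted p = 0.0317). The KO call of SKIP was lost without KO GFP-positive replicate 1 or 2 or KO GFP-negative replicate 2 or 3 (adjusted p = 0.0639 to 0.102). The interaction was lost without any 1 KO library other than KO GFP-positive replicate 3 for comm (adjusted p = 0.0514 to 0.0836), SKIP (0.065 to 0.122) and lncRNA:CR44042 (0.0568 to 0.111).

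In several transcription factor genes the depletion from GFP-positive cells seen in WT brains was smaller or not called in KO brains. The Iroquois factor caup stood at 8.42, 6.27 and 9.28 in KO GFP-positive libraries, against 17.996, 16.9 and 18.97 in KO GFP-negative libraries. The WT values were 0.822 ± 0.534 in WT GFP-positive cells and 17.7 ± 1.1 in WT GFP-negative cells (interaction 2.30, SE 0.29, adjusted p = 0.00229). Its neighbour on 3L, ara, had means of 13.4 ± 3.2 in KO GFP-positive cells and 20.4 ± 2.76 in KO GFP-negative cells. WT libraries averaged 1.28 ± 0.383 in WT GFP-positive cells and 18.4 ± 3.76 in WT GFP-negative cells (interaction 2.49, SE 0.30, adjusted p = 0.00145). The KO call of ara was lost without any 1 KO library other than KO GFP-positive replicate 1 (adjusted p = 0.0644 to 0.147). C15, a homeodomain factor, averaged 9.96 ± 1.33 in KO GFP-positive cells and 17.8 ± 1.45 in KO GFP-negative cells. WT brains had 0.664 ± 0.242 in WT GFP-positive cells and 17.7 ± 3.9 in WT GFP-negative cells (interaction 2.70, SE 0.27, adjusted p = 0.000335). zfh1, a zinc-finger homeodomain factor of motor neurons, averaged 68.5 ± 9.29 in KO GFP-positive cells and 170.5 ± 6.89 in KO GFP-negative cells. zfh1 averaged 20.8 ± 3.85 in WT GFP-positive cells and 156 ± 4.68 in WT GFP-negative cells (interaction 1.55, SE 0.18, adjusted p = 0.00145). CG32532 averaged 31.03 ± 3.48 in KO GFP-positive cells and 42.6 ± 4.93 in KO GFP-negative cells. CG32532 was at 8.22 ± 0.482 in WT GFP-positive cells and 41.6 ± 3.82 in WT GFP-negative cells (interaction 1.76, SE 0.18, adjusted p = 0.000587), and its KO call was lost without KO GFP-positive replicate 2 or KO GFP-negative replicate 3 (adjusted p = 0.0895 to 0.0921). tio, a paralogue of tsh, stood at 42.6, 37.8 and 40.9 in KO GFP-positive cells and 47.3, 47.3 and 36.1 in KO GFP-negative cells and was not called in KO brains. tio averaged 13.5 ± 1.39 in WT GFP-positive cells and 47.2 ± 1.15 in WT GFP-negative cells (interaction 1.64, SE 0.18, adjusted p = 0.000802).

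A further group was called higher in KO brains and not called in WT brains, with the interaction called. Jhbp2, annotated as a juvenile hormone binding protein gene, stood at 14.6, 41.4 and 18.5 in KO GFP-positive libraries, against 1.64, 2.1 and 1.87 in KO GFP-negative libraries, 13.3-fold higher (log2 difference 3.04, SE 0.31, adjusted p = 8.1e-06). WT brains had 1.62 ± 0.13 in WT GFP-positive cells and 2.29 ± 0.695 in WT GFP-negative cells (interaction 3.34, SE 0.43, adjusted p = 0.00238). CG14459 stood at 47.3, 63.7 and 79.9 in KO GFP-positive libraries, against 12.1, 13.5 and 10.5 in KO GFP-negative libraries (adjusted p = 1.07e-05). The WT values were 12.2 ± 3.18 in WT GFP-positive cells and 17.7 ± 4.87 in WT GFP-negative cells (interaction 2.79, SE 0.34, adjusted p = 0.00151). tey, a repressor of the guidance cue Toll in muscle, averaged 41.2 ± 8.75 in KO GFP-positive cells and 13.8 ± 1.81 in KO GFP-negative cells. In WT brains the means were 10.9 ± 4.43 in WT GFP-positive cells and 16.2 ± 1.26 in WT GFP-negative cells (interaction 2.11, SE 0.34, adjusted p = 0.0131). The zinc-finger factor salm averaged 96.3 ± 9.35 in KO GFP-positive cells and 59.8 ± 2.47 in KO GFP-negative cells. WT brains had 43.7 ± 5.63 in WT GFP-positive cells and 52.3 ± 5.77 in WT GFP-negative cells (interaction 0.93, SE 0.17, adjusted p = 0.0324). The interaction of tey was lost without KO GFP-negative replicate 1 (adjusted p = 0.0527) and that of salm without any 1 KO library other than KO GFP-positive replicate 3 (adjusted p = 0.0602 to 0.106). 2 further genes were higher in the GFP-positive cells of both genotypes, by less in KO brains. CG34355 averaged 206 ± 23.8 in KO GFP-positive cells and 95.1 ± 8.03 in KO GFP-negative cells (adjusted p = 4.42e-06). In WT brains it averaged 616 ± 34.1 in WT GFP-positive cells and 97.9 ± 4.63 in WT GFP-negative cells (interaction -1.53, SE 0.15, adjusted p = 0.000292). FER, a tyrosine kinase, averaged 88.3 ± 6.39 in KO GFP-positive cells and 71.4 ± 0.847 in KO GFP-negative cells (adjusted p = 0.0344). In WT brains it was at 246 ± 20.7 in WT GFP-positive cells and 87.6 ± 8.02 in WT GFP-negative cells (interaction -1.18, SE 0.14, adjusted p = 0.00145). The KO call of FER was lost without any 1 KO library other than KO GFP-positive replicate 2 (adjusted p = 0.0683 to 0.0905), and with quantile normalisation, equal library totals, edgeR and DESeq2. Of the 684 genes called in KO brains only, the interaction called 7, and of the 834 called in WT brains only it called 13, so a call in 1 genotype alone seldom came with a tested difference.

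Noncoding genes were called in both directions. Of 496 tested genes annotated as ncRNA 44 were higher and 45 lower (17.9%), and of 9149 protein-coding genes 2247 were higher and 1191 lower (37.6%). Of 13 long noncoding RNAs described in the brain 3 were higher (23.1%, near the 23.6% of all genes tested) and 3 lower (23.1%, against 12.9%). lncRNA:CR30009 stood at 7.67, 3.84 and 7.21 in KO GFP-positive libraries, against 232, 252 and 232 in KO GFP-negative libraries, 38.2-fold lower (log2 difference -5.09, SE 0.23, adjusted p = 7.56e-09). lncRNA:mimi was higher, at 173 ± 34.2 in KO GFP-positive cells and 61.9 ± 13.1 in KO GFP-negative cells (adjusted p = 4.3e-05). The dosage compensation RNA lncRNA:roX1 stood at 2794, 2555 and 2502 in KO GFP-positive cells and 2388, 2471 and 2515 in KO GFP-negative cells and was not called.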

How the data were processed

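RNA of sorted larval brain cells was sequenced in 12 libraries, with 3 in each of 4 groups. The deposited values are a normalised signal, a scaled form of the authors' gene read counts that resembles CPM, although column totals are not equal. Per the submitters' processing notes, TopHat2 2.0.13, HTSeq 0.6.1, edgeR 3.10.5 and build BDGP6 were used, with no role or order given. Every deposited value was a whole multiple, within 0.001, of the value of 1 read in its library (100% of values), so whole reads were recovered for the count models. The table holds 12610 genes, of which 12389 have a name in the BDGP6.54 annotation. How the authors chose the 12610 genes is not given in the sources used here, but each had a value above 0 in at least 8 of the 12 libraries. The libraries kept no strand. Promoter motifs were not analysed here.

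A gene was tested if 3 or more of the 12 libraries reached a value of 1, which left 9912 genes. Tests were made on log2(value + 1), which understates the change of low genes. Moderated statistics came from limma 3.58.1 in R 4.3.3 with a mean-variance trend, 1 mean per group over all 12 libraries and Benjamini-Hochberg adjustment. A gene was called at an adjusted p under 0.05. The interaction is the KO difference minus the WT difference. Fold changes are ratios of group means. edgeR 4.0.16 and DESeq2 1.42.0 on recovered reads were alternatives, besides other pseudocounts, floors and scalings, lane, replicate block and single libraries left out. The fits were also run on simulated data with few changed genes, the same dispersion in every gene and no effect of lane or run. These simulations do not bear on the choice of scaling or on the variation shared within runs.

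The replicate block pairs libraries by runs of adjacent title numbers (13 to 16, 1 to 4 and 5 to 8). The first of these runs was sequenced on lane 7 and the second on lane 6, whereas the third was divided, with its KO pair on lane 7 and its WT pair on lane 6. Deviations from the group means correlated at 0.113, 0.573 and 0.516 for KO libraries of the same run, and at -0.563 to 0.00924 for other pairs.

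The 38 gene lists and the named genes were chosen with earlier results of these data known. Named are Rfx, the 14 genes with the largest folds in each direction among called genes whose KO groups did not overlap, the 8 with the smallest interaction p in each direction (both with a mean of at least 5 in the higher group), and every gene called for the interaction. Of each list, a part of the members with the smallest p in each direction (up to 6) or the largest p (2) is given, and of the cilium lists a part of all members. nSyb, repo, Sobp, vg, Wnt10, otp, comm, SKIP, lncRNA:CR44042, Jhbp2, tey, salm and Dop1R2, and interaction genes beyond the first 8, were named after their values were seen.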

Additional observations from a re-analysis of the deposited data

Results flagged for a closer look

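The GFP difference in KO brains differed from that in WT brains for 55 genes, by a test of the difference itself (the interaction in limma, adjusted p under 0.05). Without 1 KO library or more, 24 of these calls were lost. The values here are log2 differences, KO minus WT.

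Below 0 were the genes of the cilium lists, nompB (-4.80), IFT52 (-4.22), hmw (-3.47), nmdyn-D7 (-3.13), Fam92 (-2.68), dnd (-2.50), IFT57 (-2.27), Ir25a (-1.94), Root (-1.65), IFT43 (-1.62) and B9d1 (-1.59), and besides them otp (-5.48), Oatp26F (-4.34), GstD11 (-2.45), twy (-2.06), CG15923 (-1.92), CG6569 (-1.82), erm (-1.61), dmrt99B (-1.56), CG34355 (-1.53), out (-1.42), opa (-1.36), DIP-theta (-1.24), FER (-1.18), btd (-1.13), Rfx (-0.85) and Drl-2 (-0.77). Above 0 were CG14989 (4.61), Gad1 (4.02), Jhbp2 (3.34), Hdc (2.89), CG14459 (2.79), CG14075 (2.72), C15 (2.70), ara (2.49), caup (2.30), bnb (2.18), tey (2.11), DIP-beta (1.84), CG32532 (1.76), Hr51 (1.72), tio (1.64), zfh1 (1.55), E(spl)m6-BFM (1.42), lncRNA:CR44042 (1.40), Reck (1.18), kn (1.15), CG32795 (1.09), vg (0.99), comm (0.99), dac (0.98), salm (0.93), SKIP (0.82), ey (0.75) and Fas2 (0.67).

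Among the weaker calls were those of Fas2 and Drl-2. Fas2 averaged 379 ± 28.5 in WT GFP-positive cells and 314 ± 17.9 in WT GFP-negative cells, and its interaction (adjusted p = 0.046, limma) was lost without any 1 of the 6 KO libraries (adjusted p = 0.0784 to 0.147). Drl-2 averaged 263 ± 24.1 in WT GFP-positive cells and 83.7 ± 5.48 in WT GFP-negative cells, and its interaction (adjusted p = 0.0451) was lost without any 1 KO library other than KO GFP-positive replicate 2 (adjusted p = 0.0873 to 0.123).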

How the results depend on the processing

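The counts of called genes, 2341 higher and 1274 lower in KO GFP-positive cells, stayed within 1.5 times of these values under other pseudocounts, floors, count models, quantile normalisation, lane as a covariate and the 6 KO libraries alone. With equal library totals, 1344 were higher and 2029 lower, and within lane 7 (2 libraries against 2) 1416 were higher and 849 lower. Leaving out 1 KO library at a time gave 1628 to 2537 higher and 1013 to 1323 lower. The log2 difference of Rfx ran from 4.15 to 4.44 over these settings and stayed called, with 4.28 in the single pair on lane 6. With the replicate block, 2832 genes were higher and 1520 lower, and 3612 of the 3615 called genes were called in the same direction. The interaction called 55 genes, 117 with DESeq2, 53 with edgeR and 101 with the replicate block, 34 to 51 without 1 KO library, and 32 without title numbers 1 to 4, a setting chosen after seeing the data, as was the one without the libraries richest in rRNA reads. The block added the interaction calls of Tdc2, Dh31, Wnt10, Gsc, baz, dila and CG15909, and it changed no other call of a named gene than these and those of Dhc62B and Eno. DESeq2 gave no adjusted p for the interactions of otp and B9d1, and the calls of CG14075, IFT57, dnd, Drl-2, Ir25a, B9d1, out, CG15923 and twy were lost with edgeR. With a pseudocount of 0.1, the interaction calls of IFT57, dnd, B9d1, Ir25a, twy, out, Fas2, Drl-2 and Reck were lost. The interaction was not run within lane 7 and cannot be fitted in the 6 KO libraries alone. Genes with a few reads per library, such as dnd or Pburs, are the least precise. Counts of list members that moved by over 1.5 times on leaving out a library stand beside each list.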
